A study of Mus musculus with 32 samples.

Results

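Spp1 encodes osteopontin, a secreted phosphoprotein of bone matrix and of many soft tissues. One probe set of the mouse MOE430A array (Affymetrix) stands for it, out of 22626 that are not array controls, and it is the only member here. The probe set was chosen from measured values: a low level in wild type (wt) retina up to postnatal day 6 (P6), a high level at P8, and a low level in rd1 retina at P8. Those values are therefore given as a description, without a test. The description "nearly absent in rd1 at P8" held on 3 of the 4 rd1 arrays of that age and not on rd1 P8 replicate 2, where Spp1 was high. Its symbol comes from a supplementary gene table of the study, since the probe annotation used here does not list the probe set.

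The 32 arrays were hybridised with RNA of whole retinas. Each genotype, wt or rd1, was sampled on 4 days, P2, P4, P6 and P8, which makes 8 groups of 4 arrays. Both genotypes were homozygous and on a C57BL/6 background. The mutant mice carried rd1, a mutation of the rod phosphodiesterase subunit gene Pde6b, together with the linked mutation light ear, so rd1 here means rd1/le. Each sample pooled 8 to 14 retinas. All values are log2 expression scores, so that a difference of 1 is a 2-fold change.

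Osteopontin belongs to the SIBLING family of acidic matrix proteins and is also counted among the matricellular proteins, which signal to cells rather than build the matrix. It carries an arginine-glycine-aspartate (RGD) motif that binds integrins, above all those with the alpha v subunit, and it also interacts with CD44. In the mature rodent retina it is known in retinal ganglion cells, and in injured nervous tissue in activated microglia and macrophages. Its transcription is controlled through a promoter studied mostly in bone cells, where RUNX2 is a known regulator.

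The promoter is shown because several of the factors known to bind it are on the array. In the RefSeq annotation (GRCm38.p6) the 250 bases before the start of Spp1 are at chr5:104434861-104435110 on the plus strand, printed 5′ to 3′ with a TATAAA match and a RUNX motif match in capitals.
Spp1 promoter: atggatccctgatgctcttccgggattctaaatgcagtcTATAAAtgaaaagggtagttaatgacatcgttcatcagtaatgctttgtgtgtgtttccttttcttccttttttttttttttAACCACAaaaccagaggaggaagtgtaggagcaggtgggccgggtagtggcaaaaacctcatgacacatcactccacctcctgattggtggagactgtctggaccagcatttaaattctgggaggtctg
The RUNX letters AACCACA begin at position -129, and 4.40% of 32851 RefSeq mouse promoter windows of this length hold them on either strand. The letters TATAAA at -211 occur in 12.4% of the windows. An E box (CANNTG, here CAGGTG) lies at -98, a GGAAGT match of the ETS type at -111 and a CCAAT box on the minus strand at -46, in 66.2%, 19.7% and 33.8% of windows. Neither the AP-1 letters TGANTCA (6.75% of windows) nor the photoreceptor homeodomain letters TAATCC (6.25%) are in this window. These matches describe letters and are not measured binding sites.

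Up to P6 Spp1 was low in both genotypes. The log2 values of the wt arrays (replicates 1 to 4) were 2.60, 2.67, 2.71 and 2.63 at P2, 2.55, 2.43, 2.57 and 2.58 at P4, and 2.46, 2.76, 2.87 and 2.90 at P6. The rd1 arrays measured 2.63, 2.68, 2.63 and 2.85 at P2, 2.39, 2.65, 2.72 and 2.66 at P4, and 2.62, 3.52, 2.71 and 2.78 at P6. All 24 arrays lay between 2.39 and 3.52, and apart from rd1 P6 replicate 2 none exceeded 2.90. The 27 Bacillus control probe sets, which match no mouse transcript, ran from 1.75 to 4.89 over all arrays, and on each of these 24 arrays Spp1 stayed below the highest of them on the same array. At these ages Spp1 therefore has only an upper bound.

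At P8 Spp1 was high on all 4 wt arrays, with log2 values of 7.54, 7.04, 7.19 and 6.80 for replicates 1 to 4. The rd1 arrays of the same age measured 2.64, 6.33, 2.85 and 3.55. The genotypes did not overlap, since the lowest wt array exceeded the highest rd1 array by 0.47, but that rd1 array, replicate 2, was much nearer to wt than to the other 3. Spp1 exceeded every Bacillus control of its own array on 5 of the 32 arrays, the 4 wt arrays of P8 and rd1 P8 replicate 2.

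**Figure D1:**
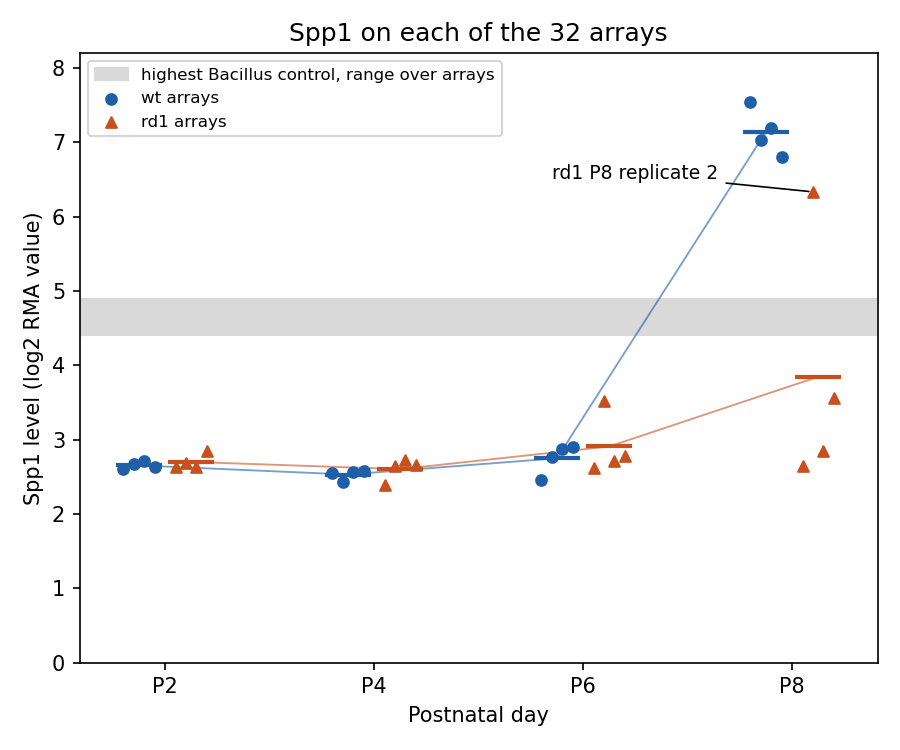
Spp1 level (log2 RMA value) on each of the 32 arrays against postnatal day, wt as circles and rd1 as triangles, with horizontal bars for the means of 4 arrays joined by lines. The grey band spans the highest Bacillus control of each array, and only the 4 wt arrays of P8 and rd1 P8 replicate 2, at 6.33, lie above it.

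The wt group means were 2.65 ± 0.05 (SD, n = 4), 2.53 ± 0.07, 2.75 ± 0.20 and 7.14 ± 0.31 in order of age, and the rd1 group means 2.70 ± 0.10, 2.60 ± 0.15, 2.91 ± 0.41 and 3.84 ± 1.70. From P6 to P8 the wt mean thus differed by 4.39 on the log2 scale, 21.0-fold as measured. With each P6 array set at its highest Bacillus control, the wt level was at least 5.62-fold higher at P8. At P8 the rd1 mean was 3.30 below wt, 9.82-fold as measured, and wt was at least 4.10-fold higher with the rd1 arrays held to the same bound. The mean of rd1 P8 without replicate 2 was 3.02 ± 0.48 (SD, n = 3), 4.12 below wt or 17.4-fold as measured, and the bound then became 5.44-fold. The change of the rd1 mean from P6 to P8 was 0.94 with replicate 2 and 0.11 without it, so replicate 2 carried most of it. Ordered by mean, the groups ran wt P4, rd1 P4, wt P2, rd1 P2, wt P6, rd1 P6, rd1 P8 and wt P8, and neighbours in this order overlapped in their arrays except rd1 P8 and wt P8. In pooled tissue, fewer cells that express Spp1 and less Spp1 RNA per cell cannot be told apart.

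No genotype difference in Spp1 was called before P8. The rd1 mean differed from the wt mean by 0.05 at P2 (95% interval -0.80 to 0.90, limma adjusted p = 0.991), 0.07 at P4 (-0.78 to 0.92, adjusted p = 0.9998) and 0.16 at P6 (-0.69 to 1.01, adjusted p = 0.912). Exact two-sided permutation tests of 4 against 4 arrays, which can go no lower than p = 0.0286, gave p = 0.486, 0.429 and 0.629. The shared spread of the fit includes the scattered rd1 P8 group, which widens these intervals. They leave room for a difference of up to about 1 on the log2 scale in the measured values. Because Spp1 lay within the range of the controls at these ages, they set no limit on a difference in its RNA. A call after adjustment would need a larger difference still, since Pde6b at P4 was not called at -2.58 (SE 0.49, limma adjusted p = 0.101). Among all probe sets, 0.0398% were called at P2, 0.00442% at P4 and 0.208% at P6. Between successive ages the rd1 mean differed by -0.10 from P2 to P4 and by 0.30 from P4 to P6 (adjusted p = 0.886 and 0.647). The wt means, whose low level entered the choice of the gene, differed by -0.12 and 0.22, given without a test, at steps where 16.8% and 11.9% of all probe sets were called in wt and 15.5% and 7.09% in rd1. Every wt array of P4 was below every wt array of P2, within the range of the controls.

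Pde6b, the gene mutated in rd1, was read on the same arrays as a check of the labels. On the P8 arrays of wt it measured 13.65, 13.57, 13.81 and 13.91, and on those of rd1 11.11, 11.45, 10.96 and 12.04. Every rd1 array was below every wt array, and at 11.45 rd1 P8 replicate 2 lay among the rd1 arrays. At P4 and P6 the genotypes did not overlap either. At P2 wt replicates 1 to 4 stood at 6.96, 7.19, 9.42 and 9.76, whereas the rd1 replicates stood at 7.00, 9.18, 9.24 and 6.84. The low pair of wt arrays and the high pair of rd1 arrays go against their labels. Without those 4 arrays the Spp1 difference at P2 was 0.07 (adjusted p = 0.999). The limma fit called Pde6b lower in rd1 at P6 (-2.64, SE 0.49, adjusted p = 0.0217) and at P8 (-2.35, SE 0.49, adjusted p = 0.0367), but not at P4 (-2.58, adjusted p = 0.101), where its spread was taken from all groups. The call at P6 was lost without wt replicate 1, 2 or 3 or rd1 replicate 3 or 4 (adjusted p up to 0.125) and that at P8 without any wt array or rd1 replicate 3 (up to 0.124), while the differences stayed between -2.71 and -2.20.

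The Spp1 value of rd1 P8 replicate 2 stood apart from the rest of that array by the size of its excess. It exceeded the mean of the other 3 rd1 P8 arrays by 3.32, 9.96-fold as measured. Among 22626 probe sets Spp1 ranked 1 by this excess, and it was the only one at least 2 above the highest of the other 3 arrays. The next were Ms4a3, a gene of haematopoietic cells, at 1.02 and Dcp1a, an mRNA decapping factor, at 1.00 above the highest other array. Pfkfb2, whose wt mean was 3.26 at P6 and 4.49 at P8, was 0.96 above it. No probe set was at least 2 below the lowest of the other 3. Replicates 1 and 3 had 0 probe sets at least 2 above the others, whereas replicate 4 had 39, lens crystallins among them. Over all probe sets, Pearson's r with the mean of the wt P8 arrays was 0.996, 0.997, 0.993 and 0.989 for rd1 P8 replicates 1 to 4, as a description across genes. The limma array quality weights, which are higher for arrays nearer to the fit, were 0.568, 3.29, 0.534 and 0.341 for these arrays. By this measure replicate 2 was the array of highest quality in its group. The Spp1 means given above are unweighted, so they do not take this into account.

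**Figure D2:**
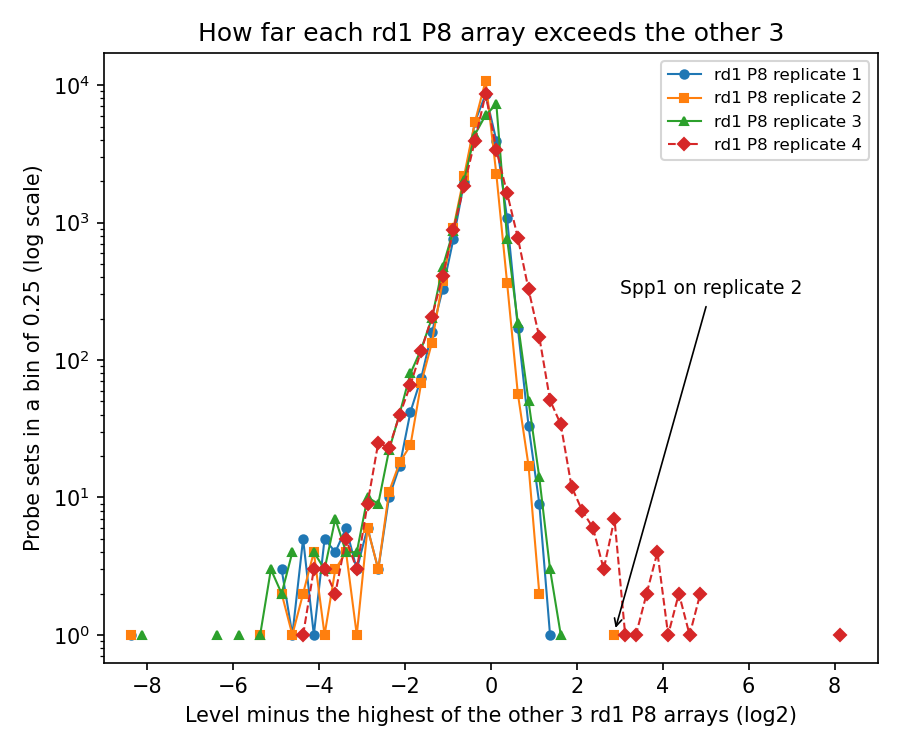
Number of probe sets (log scale) by how far an rd1 P8 array lay above the highest of the other 3 (log2, bins of 0.25), 1 line for each of the 4 arrays. Replicate 2 has 1 probe set at 2 or more, which is Spp1, replicate 4 has 39, and replicates 1 and 3 have 0.

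Marker genes of other cell types on the same arrays were as follows. A summed level is the log2 of the values summed on the linear scale, so the brightest genes of a list weigh most. The summed level of 8 lens markers was 11.55 on rd1 P8 replicate 2, 11.74 and 11.54 on replicates 1 and 3, and 15.58 on replicate 4, against 9.26 to 13.25 on the wt P8 arrays. The summed level of 15 microglia and macrophage markers was 10.83 on replicate 2 and 10.74 to 11.31 on the other rd1 arrays, against 10.52 to 10.85 in wt. For 10 retinal ganglion cell markers it was 13.82 on replicate 2, 13.60 to 14.13 on the others, and 13.84 to 14.08 in wt. For 9 bone, cartilage and scleral markers it was 11.47 on replicate 2, 11.31 to 11.81 on the others, and 11.26 to 11.46 in wt. On none of these 4 lists did the sum of replicate 2 stand beyond the other 3 rd1 arrays. A change of dimmer markers could go unseen in such a sum. In the bone, cartilage and scleral list the rd1 P8 mean was 11.19 for Col2a1 and 8.34 for Alpl, the next brightest. Replicate 2 did stand beyond them on the red blood cell list, of which 3 of 5 markers were measured. Its sum was 6.99 against 5.93, 6.27 and 6.08 on replicates 1, 3 and 4 and 5.83 to 6.78 in wt. Slc4a1, the red cell anion exchanger, was at 6.29 on replicate 2 and at 5.24, 5.68 and 4.67 on replicates 1, 3 and 4, and Alas2, the erythroid enzyme of haem synthesis, at 5.38 and at 4.03, 4.14 and 5.12. Hba-a1, a haemoglobin chain, stayed within the range of the controls. The part of any cell type in the Spp1 value of this array was not tested further.

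Only 3 other probe sets shared the wt onset and the rd1 loss of Spp1. The pattern asked for every wt P8 array above every earlier wt array, every rd1 P8 array below every wt P8 array, and a difference of at least 1 in both means. These were Slc38a5, a glutamine transporter of the plasma membrane, Cpeb4, a regulator of translation that binds polyadenylation elements, and Higd1b, a HIG1 domain protein known in the brain as a pericyte marker. They were selected on these values, so no test is given.

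Slc38a5 measured 4.59, 3.75, 4.33 and 3.96 on the wt P8 arrays and 2.53, 3.19, 2.19 and 3.33 on the rd1 P8 arrays. Its mean was 1.84 ± 0.11 (SD, n = 4) in wt at P6, so that the onset was 2.32 and the loss -1.35. Cpeb4 measured 4.73, 4.50, 4.22 and 4.54 on the wt arrays of P8, against 3.95, 3.26, 2.89 and 2.86 on the rd1 arrays. Its onset from 2.76 ± 0.06 at P6 was 1.74 and its loss -1.26. Higd1b measured 4.33, 4.16, 4.13 and 4.23 on the wt arrays of P8, against 3.12, 3.27, 2.81 and 3.34 on the rd1 arrays, with an onset of 1.43 from 2.79 ± 0.20 and a loss of -1.08. Higd1b stayed below the highest Bacillus control of its own array on all 32 arrays, whereas Slc38a5 exceeded it on wt P8 replicate 1 (4.59 against 4.53) and Cpeb4 on wt P8 replicates 1 and 4 (4.73 against 4.53, and 4.54 against 4.54, a gap within rounding). Spp1 exceeded it on every wt array of P8. For each of the 3 genes the highest rd1 P8 array was one other than replicate 2.

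**Figure D3:**
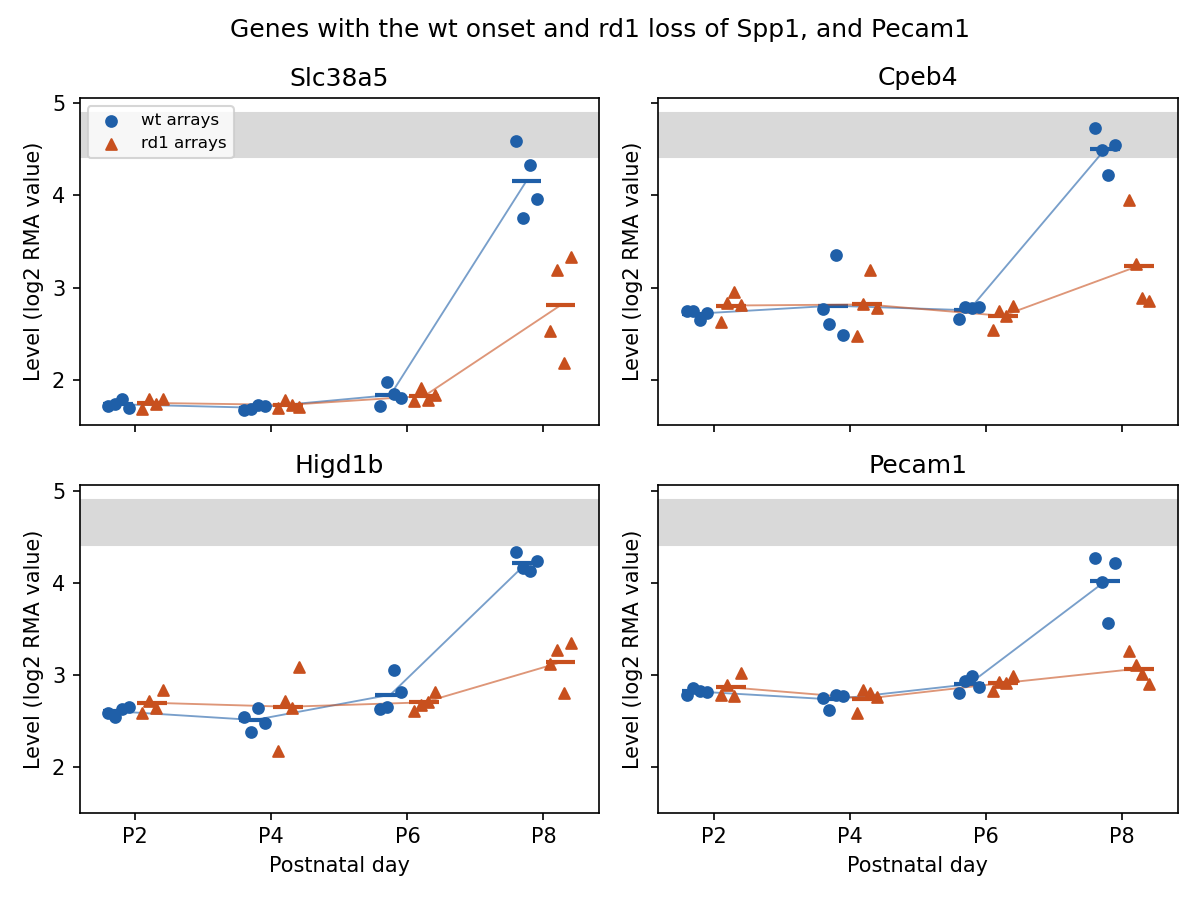
Level (log2 RMA value) by postnatal day of Slc38a5, Cpeb4, Higd1b and Pecam1, wt as circles and rd1 as triangles, 1 point for each array and bars joined by lines for means of 4, with the range of the highest Bacillus control in grey. Each of the 4 genes has wt P8 arrays above all earlier wt arrays and above all rd1 P8 arrays, and none exceeds the band.

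Just outside the pattern were Pecam1, an endothelial adhesion molecule (onset 1.11, loss -0.94), Pltp, a phospholipid transfer protein of lipoproteins (onset 1.11, loss -0.94), and Gzmm, a granzyme, whose onset of 0.92 was too small. With a threshold of 0.58 in place of 1 the pattern held for 33 probe sets and with a threshold of 2 for Spp1 alone. Leaving out rd1 P8 replicate 2 gave 7 probe sets, the 4 above with Dlg4, a scaffold of synapses, Sult4a1, a brain sulfotransferase, and Pltp. The count was also 7 without wt P8 replicate 1, wt P8 replicate 3 or rd1 P8 replicate 1, 15 without wt P8 replicate 2 and 18 without rd1 P8 replicate 4, each including the same 4. Without rd1 P8 replicate 3 it was 3, as Higd1b dropped out with a loss of -0.97. Among the 33 probe sets, the place of rd1 P8 replicate 2 between the mean of the other rd1 arrays (0) and the wt mean (1) was 0.80 for Spp1 and had a median of 0.20 over the other 32, which ran from -0.55 to 0.68.

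Over the 32 arrays the genes whose pattern was most like that of Spp1 were Slc38a5 (Pearson's r = 0.945), Higd1b (0.922), Synpo2 (0.894), Pecam1 (0.892), Slc41a2 (0.884), Rasgrf2 (0.881), Dscaml1 (0.879), Ddit4l (0.870), Myl9 (0.869) and Pfkfb2 (0.867). The median r over all other probe sets was -0.07 and the 99th percentile 0.724, and 43 probe sets reached 0.8. These points share arrays, ages and genotypes, and a change at P8 alone suffices for a high r. Synpo2 and Myl9 encode actin-associated proteins of contractile cells, Slc41a2 a magnesium transporter, Rasgrf2 a Ras exchange factor, Dscaml1 a neuronal adhesion molecule, Ddit4l an inhibitor of mTOR signalling and Pfkfb2 a glycolytic regulator. The wt P8 and rd1 P8 means were 5.46 ± 0.46 and 4.58 ± 0.77 for Myl9, and 6.26 ± 0.29 and 5.57 ± 0.10 for Dscaml1 (SD, n = 4). On rd1 P8 replicate 2 Rasgrf2 was at 5.74, Pfkfb2 at 4.87 and Synpo2 at 4.56, above their wt P8 means of 5.53, 4.49 and 4.49. This array was also the highest of rd1 P8 for Slc41a2 and Dscaml1, but not for Slc38a5, Higd1b, Pecam1, Ddit4l or Myl9. The ranking by r included this array, which favours genes that are high on it. The list depends on the measure, since 2 of the 10 were shared with the 10 of highest r over the 8 group means, 3 with those of highest Spearman's rho and 6 with those found without rd1 P8 replicate 2.

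The other genes of the SIBLING family lie beside Spp1 on chromosome 5 and showed no rise like that of Spp1. Ibsp, Dmp1 and Dspp, matrix proteins of bone and tooth, measured at most 3.74, 4.32 and 1.81 on any array, and Mepe, a phosphate-regulating bone protein, at most 5.37. Mepe exceeded the highest Bacillus control of its own array on 30 of 32 arrays, and Ibsp, Dmp1 and Dspp on 0. Of these 4 genes 0 were called between the genotypes at any age and 0 from P6 to P8 in either genotype. At P8 the background was 0.212% called for rd1 against wt, and at the step from P6 to P8 15.6% in wt (7.97% higher, 7.6% lower) and 18.3% in rd1 (9.56% higher, 8.76% lower). At P8 their median difference of rd1 from wt was 0.24, beside 0.07 over all probe sets.

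By gene order in the RefSeq annotation, the 5 nearest measured genes on each side were Sparcl1, Dspp, Dmp1, Ibsp and Mepe, and Thoc2l, Zfp33b, Abcg3, Gbp8 and Gbp6. None of the 10 was called between the genotypes at any age, and at P8 their differences ran from -0.15 (Sparcl1) to 0.40 (Mepe). Pde6b, the gene of the rd1 mutation, is also on chromosome 5. Of the 19 measured genes between Spp1 and Pde6b 0 were called at any age, and of 53 measured within 5 Mb of Spp1 only Pde6b was. By an unadjusted p under 0.05 at P8, 5 of the 19 (26.3%) and 17 of the 53 (32.1%) passed, beside 18.9% of all probe sets. Hps4, the gene mutated in light ear, differed by 0.03 at P8 (adjusted p = 0.952). Because the rd1 mice carry a linked stretch of this chromosome, an effect of the Pde6b mutation on Spp1 and one of linked sequence cannot be told apart.

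Of the receptors of osteopontin, the alpha v integrin subunit and CD44 rose in wt over the same step. Itgav, the alpha v subunit, measured 9.02, 8.50, 8.25 and 8.71 in wt at P6 and 9.49, 9.68, 9.58 and 9.91 at P8, with no overlap. It rose by 1.04 (SE 0.23, limma adjusted p = 0.00227). This rise began from a P6 mean of 8.62, below the wt mean of 9.25 already reached on P4. The P2 mean had been 8.08, and the lower value of P6 against P4 was not called. With a P8 mean of 9.66, Itgav thus had no onset like that of Spp1. Cd44, the hyaluronan receptor, measured 3.75, 3.78, 3.90 and 3.06 at P6 and 4.51, 3.91, 5.25 and 5.42 at P8, and it rose by 1.15 (SE 0.29, adjusted p = 0.00582). Its P8 values straddle the range of the Bacillus controls. These were 2 of 11 receptors measured, at a step where 15.6% of all probe sets were called in wt, 7.97% of them higher. The median change over the 11 was -0.04, beside -0.03 over all probe sets.

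In rd1 none of the 11 receptors was called from P6 to P8, a step at which 18.3% of all probe sets were called. Itgav measured 8.85, 8.31, 9.08 and 9.04 in rd1 at P6 and 9.48, 9.57, 9.19 and 8.71 at P8, a difference of 0.42 (SE 0.23, adjusted p = 0.252). With arrays weighted by their quality this value became 0.96 and a call (adjusted p = 0.000181), so the rise of Itgav was not shown to be limited to wt. Cd44 measured 3.69, 3.83, 3.97 and 3.74, and then 4.00, 4.20, 3.77 and 5.60, a difference of 0.58 (SE 0.29, adjusted p = 0.174). The change itself did not pass the test of a difference between the genotypes for either gene (adjusted p = 0.966 for both, where 0.0221% of all probe sets were called), and at P8 Itgav differed by -0.43 and Cd44 by -0.38 (adjusted p = 0.317 and 0.487). The partner subunits Itgb1 and Itgb5 ranged over all arrays from 8.29 to 9.95 and from 8.51 to 9.97, with no call from P6 to P8. Itgb3, Itgb6, Itga4, Itga5 and Itga8 stayed within the range of the controls, so the array gives only an upper bound for them.

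Of the other matricellular and RGD proteins, 5 of 13 rose in wt from P6 to P8 and 3 of 13 in rd1, and 0 differed between the genotypes at any age. Over all probe sets 7.97% were called higher at this step in wt and 9.56% in rd1, and 0.212% differed between the genotypes at P8. In wt 4 of the 13 were also called higher, and 1 lower, from P2 to P4 and again from P4 to P6. The wt means at P2, P4 and P6 were 2.93, 4.67 and 7.01 for Vtn, 4.88, 5.87 and 6.53 for Ccn2 and 7.05, 8.02 and 9.11 for Sparcl1. Those of Npnt were 8.10, 8.56 and 8.55, and those of Fn1 were 9.21, 8.78 and 8.10. None of these 5 genes had an onset at P8 like that of Spp1. Vtn, vitronectin, a ligand of alpha v integrins, measured 6.66, 7.44, 7.27 and 6.67 in wt at P6 and 8.39, 8.24, 8.66 and 9.10 at P8. It rose by 1.59 in wt (SE 0.40, adjusted p = 0.00675) and by 2.12 in rd1 (SE 0.40, adjusted p = 0.000351). Unlike Spp1 it was high on every rd1 array of P8, at 7.85, 8.10, 7.45 and 8.95. Sparcl1, a relative of SPARC and the fifth gene from Spp1, rose by 0.82 in wt (SE 0.23, adjusted p = 0.0118) and by 0.72 in rd1 (SE 0.23, adjusted p = 0.0239), with adjusted p of 0.0565 without wt P6 replicate 4 and of up to 0.138 without rd1 P6 replicate 1 or rd1 P8 replicate 2 or 4.

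Ccn2, connective tissue growth factor, measured 6.74, 6.30, 6.94 and 6.15 in wt at P6 and 7.95, 7.91, 7.54 and 7.65 at P8, a rise of 1.23 (SE 0.27, adjusted p = 0.00227). In rd1 it measured 6.75, 6.93, 6.34 and 7.57 at P8 and differed from P6 by 0.19 (SE 0.27, adjusted p = 0.772), a value that turned to -0.04 without rd1 P8 replicate 4. Its P8 difference between the genotypes was -0.87 (adjusted p = 0.180), and the difference of the changes did not pass the test (-1.04, SE 0.39, adjusted p = 0.966). Fn1, fibronectin, and Npnt, nephronectin, rose in wt by 0.61 and 0.82 (adjusted p = 0.0255 and 0.0229), and Sparc, a collagen-binding matricellular protein, rose in rd1 by 0.67 (adjusted p = 0.0372). The calls of these 3 genes were lost when 3, 4 and 5 of the single arrays of the compared groups were left out in turn, with adjusted p up to 0.0936 (without wt P6 replicate 4), 0.134 (without wt P6 replicate 4) and 0.239 (without rd1 P8 replicate 4). The pathway lists together held 11 receptors, 10 enzymes, 12 transcription factors and 13 matricellular and RGD genes. Of these genes 9 were called in wt and 6 in rd1 from P6 to P8, beside 15.6% and 18.3% of all probe sets. The counts fell to 5 in wt without wt P6 replicate 4 and to 3 in rd1 without rd1 P8 replicate 2 or 4.

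**Figure D4:**
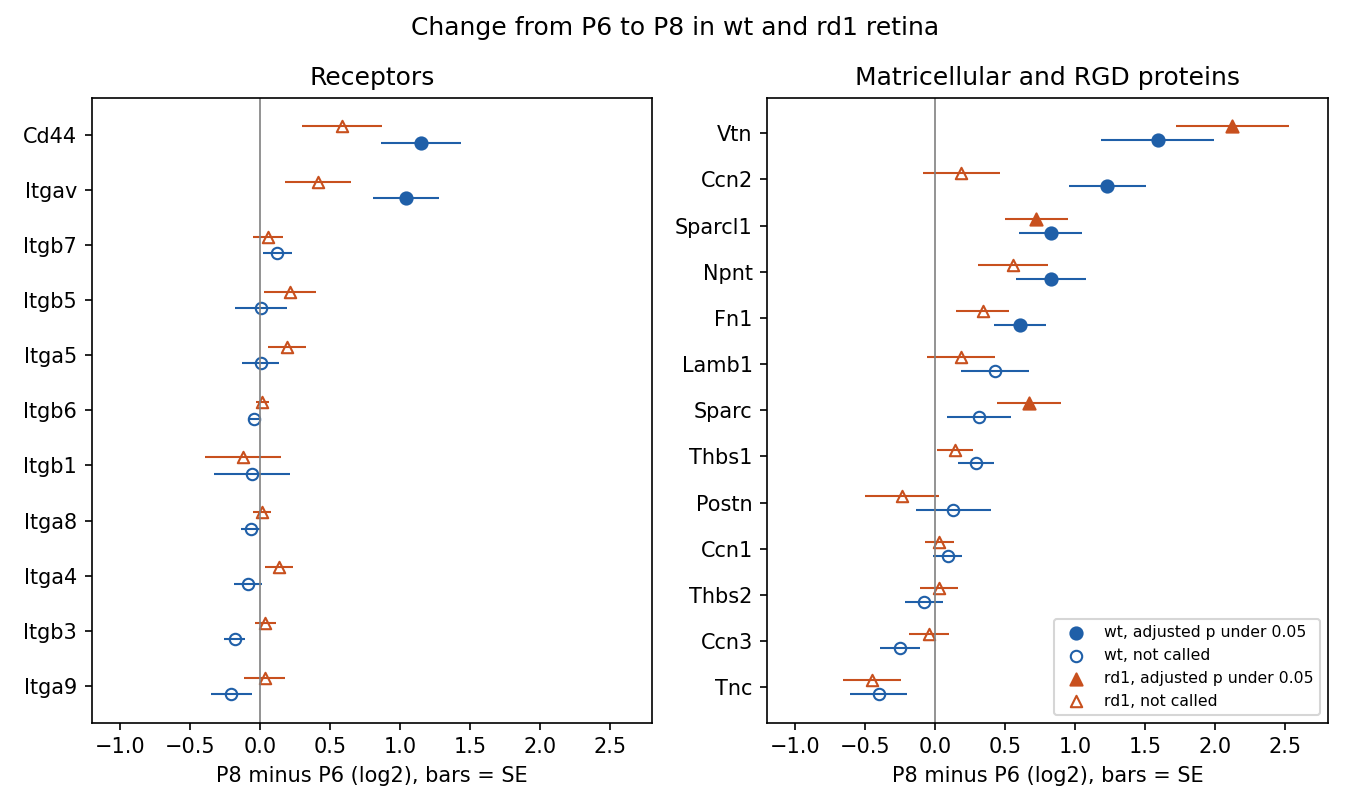
Difference of P8 from P6 (log2) with its standard error for the 11 osteopontin receptors and the 13 other matricellular and RGD proteins, wt as circles and rd1 as triangles, filled where the adjusted p was under 0.05. In wt 2 receptors and 5 matricellular genes are filled, in rd1 0 and 3, and Vtn is filled in both.

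Among enzymes that cut or modify osteopontin, 0 of 10 were called in wt from P6 to P8 and 1 in rd1. The shares over all probe sets were 15.6% and 18.3%. Fam20c, the kinase that phosphorylates secreted proteins of this family, rose in rd1 by 0.52 (SE 0.16, adjusted p = 0.0224), and its difference in wt was 0.38 (adjusted p = 0.120). Its call was lost without rd1 P8 replicate 2 (adjusted p = 0.0684), without rd1 P8 replicate 4 (0.0758) and without rd1 P6 replicate 2 (0.0957). Thrombin (F2) and plasminogen (Plg), whose products cleave osteopontin, measured at most 2.88 and 2.30 on any array, within the range of the controls.

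Of 13 transcription factors known to act on the Spp1 promoter 12 were measured, and Runx2 was not analysed here. From P6 to P8 1 rose and 1 fell in each genotype, beside 15.6% of all probe sets called in wt and 18.3% in rd1. Sp1, which binds GC boxes, was the only one called in both genotypes and it fell, by 1.11 in wt (SE 0.17, adjusted p = 3.69e-05) and by 1.39 in rd1 (SE 0.17, adjusted p = 1.21e-06). Ets1, of the ETS family, rose in wt by 0.56 (SE 0.17, adjusted p = 0.0233), a call lost without wt P6 replicate 1 or 4 or wt P8 replicate 1, 2 or 4 (adjusted p up to 0.0776). On the rd1 P8 arrays Ets1 measured 5.88, 6.67, 5.92 and 5.94, so that replicate 2, the array with high Spp1, was the highest. Fos, a subunit of AP-1, measured 7.46, 6.64, 6.86 and 6.59 in wt at P8 and 7.42, 8.64, 6.57 and 9.72 in rd1. It rose in rd1 by 2.21 (SE 0.47, adjusted p = 0.00106), a call lost in a fit of the P6 and P8 arrays of rd1 alone (adjusted p = 0.0583), and its difference in wt was 1.20 (adjusted p = 0.0817). Between the genotypes 0 of the 12 were called at any age, beside at most 0.212% of all probe sets.

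Of 10 endothelial cell and pericyte markers, 5 rose in wt from P6 to P8 (Cdh5, Esam, Pdgfrb, Pecam1 and Tek) and 4 in rd1 (Cdh5, Cldn5, Esam and Pdgfrb), at a step where 7.97% and 9.56% of all probe sets were called higher. The differences of Kdr, Flt1, Rgs5 and Cspg4 in wt, each by its brightest probe set, were -0.20, 0.05, -0.01 and -0.01 and were not called. With all probe sets compared, Flt1 was among the 10 genes most like Spp1 over the 8 group means and by Spearman's rho. Its flat value therefore holds for the brightest probe set only. Of the lists of other retinal cells, 7 of 10 bipolar cell markers rose in wt and 8 in rd1, and 5 of 13 Mueller glia markers in wt and 4 in rd1. Pecam1 measured 4.27, 4.01, 3.56 and 4.21 on the wt arrays of P8, against 3.26, 3.11, 3.02 and 2.90 on the rd1 arrays. It was the only one of the 10 called between the genotypes at P8 (-0.94, SE 0.10, adjusted p = 8.03e-06), and in a fit of the P8 arrays alone the call was lost (adjusted p = 0.163). Cdh5, which encodes the cadherin of endothelial junctions, measured 4.50, 3.61, 3.57 and 4.61 on the wt arrays of P8, against 4.20, 3.86, 3.46 and 3.72 on the rd1 arrays, and did not differ by the test (-0.26, adjusted p = 0.377). Pecam1 stayed below the highest control of its own array on all 32 arrays and Cdh5 on all but wt P8 replicate 4 (4.61 against 4.54), and the summed level of the 10 markers was 11.67 to 11.86 in wt at P6, 11.62 to 11.95 in wt at P8 and 11.27 to 12.35 in rd1 at P8. The part of vascular cells in the Spp1 pattern was not tested.

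Of the markers of cells known to express osteopontin elsewhere, 2 of 15 for microglia and macrophages rose in wt from P6 to P8, C1qa by 0.67 and Cd68 by 0.85 (adjusted p = 0.0127 and 0.0208), a share near the 7.97% of all probe sets called higher. Itgam, Ptprc and Cd68 stayed below the highest control of their own array on all 32 arrays, and Aif1 and Fcer1g exceeded it on 1 and 3 of them. Of 10 retinal ganglion cell markers 4 rose in wt (Nefl, Nefm, Slc17a6 and Thy1) and 5 in rd1, these 4 and Nefh, beside 7.97% and 9.56% of all probe sets. Of 9 measured bone, cartilage and scleral markers 1 was called in each genotype, again near those shares. It was Alpl, tissue-nonspecific alkaline phosphatase, which rose by 1.29 in wt and by 1.90 in rd1 (adjusted p = 0.00113 and 8.6e-06). None of these 3 lists had a gene called between the genotypes at P8, and their part in the Spp1 pattern was not tested.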

How the data were processed

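Total RNA of pooled retinas was hybridised to MOE430A arrays, and the authors deposited 1 table of log2 RMA values (background correction, quantile normalisation and summarisation over the arrays). Scanner files were not used here, so detection calls could not be made and the Bacillus control probe sets served as the background. Quantile normalisation came before summarisation, and the medians of the deposited values still ran from 6.54 to 6.76 over the arrays. Differences of dim probe sets may be compressed in such values. Columns of the authors' own comparisons, fold changes and p-values, were not used.

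Of 22690 probe sets 64 array controls were left out. Of the 22626 tested, 20380 had 1 gene symbol, 691 had several, and 1555 were not listed, of which 10 were named from a supplementary table of the study. Linear models with 1 mean for each group were fitted to all 32 arrays in limma 3.58.1 (R 4.3.3) with an intensity trend, and p-values were adjusted over all probe sets by Benjamini-Hochberg. An adjusted p below 0.05 is a call. For each gene of a list the probe set of highest mean was taken. Single values were compared by two-sided exact permutation tests in Python 3.11.15 (scipy 1.17.1). The fit was tested on simulated data.

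The labels do not say that samples of a group came from separate litters, so p-values measure the spread between these samples. Spp1, the gene lists and the tests were chosen with earlier results of these data known. The genes named include Spp1, Pde6b, those sharing the onset and loss of Spp1 and the 10 most like it. They also include some of the list members called or among the 3 brightest, the nearest genes on the chromosome, and defining markers of other cell types. Jun, Usf2 and Tgm2, among the 3 brightest of their lists, are not described. Other fits, filters, scalings and arrays left out are given with their effects in the closing section. The number of arrays limits the precision.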

Additional observations from a re-analysis of the deposited data

Results flagged for a closer look

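For 29 named genes, each of the 8 groups of 4 arrays was checked for 1 array far from the other 3, by Dixon's critical value for the gap over the range at the 95% level. In 14 of 232 groups the value was exceeded, a share near the 1 in 20 that chance gives. For Spp1 this was rd1 P6 replicate 2, at 3.52 against 2.62 to 2.78 on the other arrays. Its gap over the range was 0.830. In rd1 P8 the gap over the range of Spp1 was 0.753, which did not exceed the critical value. By this check rd1 P8 replicate 2 was therefore not flagged for Spp1, but it was for Synpo2 and Ets1. On rd1 P8 replicate 2 Synpo2 was at 4.56 against 3.82 to 3.83, and Ets1 at 6.67 against 5.88 to 5.94.

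Other arrays that stood apart belonged to genes named beside Spp1. Synpo2 was at 3.75 on wt P6 replicate 1 (others 3.50 to 3.52) and at 3.49 on rd1 P4 replicate 2 (3.19 to 3.22). Cpeb4 was at 2.65 on wt P2 replicate 3 (2.73 to 2.75) and at 2.66 on wt P6 replicate 1 (2.78 to 2.79). Cd44 was at 4.18 on wt P2 replicate 1 (3.89 to 3.94) and at 3.06 on wt P6 replicate 4 (3.75 to 3.90). Itgav was at 8.86 on wt P4 replicate 1 (9.35 to 9.39), Myl9 at 2.78 on rd1 P4 replicate 1 (3.23 to 3.27) and Npnt at 8.61 on rd1 P8 replicate 3 (9.13 to 9.18). Sparcl1 was at 7.57 on wt P2 replicate 4 (6.80 to 6.92), and Abca8a, a Mueller glia marker, at 2.41 on rd1 P2 replicate 4 (3.18 to 3.23).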

How the results depend on the processing

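Outside the arrays left out in turn, 279 values of Spp1 and of the counts stayed within their limits under the other settings, 51 moved and 1 reversed. For the other named genes 270 values kept direction and side of the threshold, 12 lost a call, 1 gained one (Itgav in rd1 with array weights) and 1 reversed. Calls were lost for Sparcl1, Sparc, Fos and Fam20c in rd1 and for Pecam1 between the genotypes in a separate fit, for Fn1, Sparc, Ets1 and Fam20c with median centring, for Sparc and Ets1 with further quantile normalisation and for Pde6b at P8 without the dimmest probe sets. The cause was not tested. With a separate fit of the compared groups, the probe sets called for rd1 against wt were 0, 5, 9 and 10 in order of age, and for the rd1 steps 2059, 957 and 2432 (4, 1 and 2 pathway genes), and 0 for the difference of the changes. With array quality weights they were 33, 11, 837 and 3506 (1 pathway gene at P6 and 10 at P8), 6812, 5887 and 6405 for the wt steps (11 and 14 pathway genes at the last 2), 6236, 4273 and 7886 for the rd1 steps (11 and 14) and 572 for the difference of the changes (1), and Ccn2 in rd1 from P6 to P8 reversed to -0.0013. Median centring gave 18 at P8. Further quantile normalisation turned the Spp1 change in rd1 from P2 to P4 to 0.0057. Without the 30% dimmest probe sets, which drops Spp1, there were 0 calls at P2, 0 at P4, 5 at P8 and 1 for the difference of the changes. Same-numbered arrays did not pair regularly (correlation of deviations from -0.42 to 0.61 over 16 pairs). At P8 it ran from -0.15 to 0.31, and wt replicates 1, 3 and 4 correlated best with the rd1 array of their own number. The replicate block gave 130 calls at P8 and 1 pathway gene, in place of 48 and 0. Averaging the probe sets of each gene gave 5 pathway genes for rd1 from P4 to P6. Settings added after seeing the data left out the P2 arrays (9 calls at P4, 26 at P6, 0 for the difference of the changes) or the 4 of them whose Pde6b level went against the label (1278 at P2 with 2 pathway genes, 8 at P4, 18 pathway genes in wt from P2 to P4, 2 for the difference of the changes). The pattern of Spp1 was shared by 33 probe sets at a threshold of 0.58, by 1 at 2, by 14 with overlap allowed and by 0 without the dimmest probe sets, counts that include Spp1 except the last. The 10 most similar genes shared 2 with those over group means and 3 with those by Spearman's rho.

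Leaving out each array in turn, Spp1 differed between the genotypes by -0.0027 to 0.070 at P2 (reversed without rd1 P2 replicate 4), by -0.046 to 0.25 at P6 (reversed without rd1 P6 replicate 2) and by -4.12 to -2.89 at P8, and changed from P6 to P8 by 4.26 to 4.51 in wt and by 0.11 to 1.34 in rd1. The calls ranged in order of age from 0 to 314, 1 to 4, 4 to 82 and 18 to 231, from 2420 to 4213 in wt from P2 to P4, from 920 to 2170 in rd1 from P4 to P6 and from 2 to 13 for the difference of the changes. Pathway genes ranged from 0 to 1 at P2 and at P8, 6 to 13, 3 to 6 and 5 to 10 for the wt steps and 5 to 9, 1 to 4 and 3 to 7 for the rd1 steps. The shared pattern held for 3 to 18 probe sets, and 6 of the 10 most similar genes were shared without rd1 P8 replicate 2. Ccn2 in rd1 ranged from -0.039 to 0.37.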
